A study of Mus musculus with 6 samples.

Results

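The levels of 8 genes of the red cell membrane and its underlying protein skeleton were measured in mouse bone marrow: Slc4a1, Ank1, Sptb, Epb41, Epb42, Rhag, Add2 and Aqp1. They were listed by name, with earlier results of these data known, and all 8 were found among the 46603 genes listed. The marrow came from 3 mice that lack nuclear myosin 1 (NM1 KO) and 3 wild-type mice (NM1 WT), all on the C57/Bl6 background and 8 months old. Nuclear myosin 1 is the isoform of the motor protein gene Myo1c with an extended N-terminus, known for its work in transcription and chromatin. Each library held the RNA of whole, unsorted marrow spun out of the leg bones of a single mouse, so every sample is a separate animal. The labels name no treatment, and give no Cre or promoter for the knockout.

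The red cell gets its shape and resilience from a meshwork of spectrin tetramers under the lipid bilayer. Ankyrin ties spectrin to the anion exchanger band 3, and protein 4.2 steadies that link, while protein 4.1R and adducin join spectrin to short actin filaments at the corners of the mesh. Band 3 and the Rh-associated glycoprotein also carry or support blood group antigens, and inherited defects in these proteins give spherical or elliptical, fragile red cells. In marrow the genes are used mainly by erythroblasts, the nucleated precursors that fill with haemoglobin before they lose their nucleus.

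All 8 genes had a higher mean in NM1 KO than in NM1 WT marrow, but by small amounts, and none passed the threshold. Log2 fold changes of NM1 KO over NM1 WT ran from 0.15 for Slc4a1 to 0.63 for Aqp1, with a median of 0.37, against a median of 0.00 over all 15069 tested genes. A positive sign was found for 50.2% of all tested genes. In edgeR's quasi-likelihood test with Benjamini-Hochberg adjustment over all tested genes, 0 of 8 members passed an adjusted p of 0.05, and 0.776% of all genes passed. Adjusted p of the members ran from 0.107 to 0.676. At an unadjusted p under 0.05 the count was 6 of 8, all 6 higher in NM1 KO, against 16.8% of all genes in either direction and 8.44% higher in NM1 KO. With other tools on the same counts, DESeq2 called Epb41 and Aqp1 among 794 genes in all, and the likelihood ratio test called Aqp1 among 541. With limma-voom 37 genes and 0 members passed. In edgeR's quasi-likelihood test 117 genes passed. The NM1 KO values lay wholly above the NM1 WT values for 5 of 8 members, against 10.8% of all genes, and wholly below for 0 of 8, against 9.75%. The members varied together between mice, as described further on, so these counts are not 8 separate observations.

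Levels of single genes are given as CPM, each gene's count scaled to its library's total with TMM factors, which even out differences in library makeup. Levels summed over several genes, the Y-linked sum included, are CPM of the library's total alone, without TMM factors. Counts of the members ran from 1823 to 74709 per library. In whole marrow, a change in the number of erythroblasts and a change in RNA per erythroblast cannot be told apart.

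Library totals lay between 15145052 and 22618802 counts, and each NM1 KO library was deeper than each NM1 WT library. On the first principal component (37.5% of the variance) the NM1 KO libraries lay at -19.0, -53.6 and -20.5. The NM1 WT libraries lay there at 53.4, -4.39 and 44.1, in replicate order. On the second component (21.4%), NM1 WT 2 lay far from the other 5 libraries, at -61.8 against 4.45 to 20.6. Y-linked transcripts (Ddx3y, Uty, Kdm5d and Eif2s3y) summed to 202, 175 and 155 CPM in NM1 KO 1, NM1 KO 2 and NM1 WT 2, and had 0 counts in NM1 KO 3, NM1 WT 1 and NM1 WT 3. The genotypes were thus not balanced for this state. Myo1c itself had 73.8, 59.1 and 59.7 CPM in NM1 KO mice, against 89.8, 115 and 102 CPM in NM1 WT mice, and its log2 fold change was -0.67 (SE 0.14, adjusted p = 0.0516 in edgeR's quasi-likelihood test). Counts per gene add up all isoforms of Myo1c, so this level does not check the loss of the nuclear form. Erythroid cells were plainly present: the beta-globin gene Hbb-bs had 41340 ± 2269 CPM in NM1 KO mice, against 33640 ± 4035 CPM in NM1 WT mice (SD, n = 3 each).

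**Figure D1:**
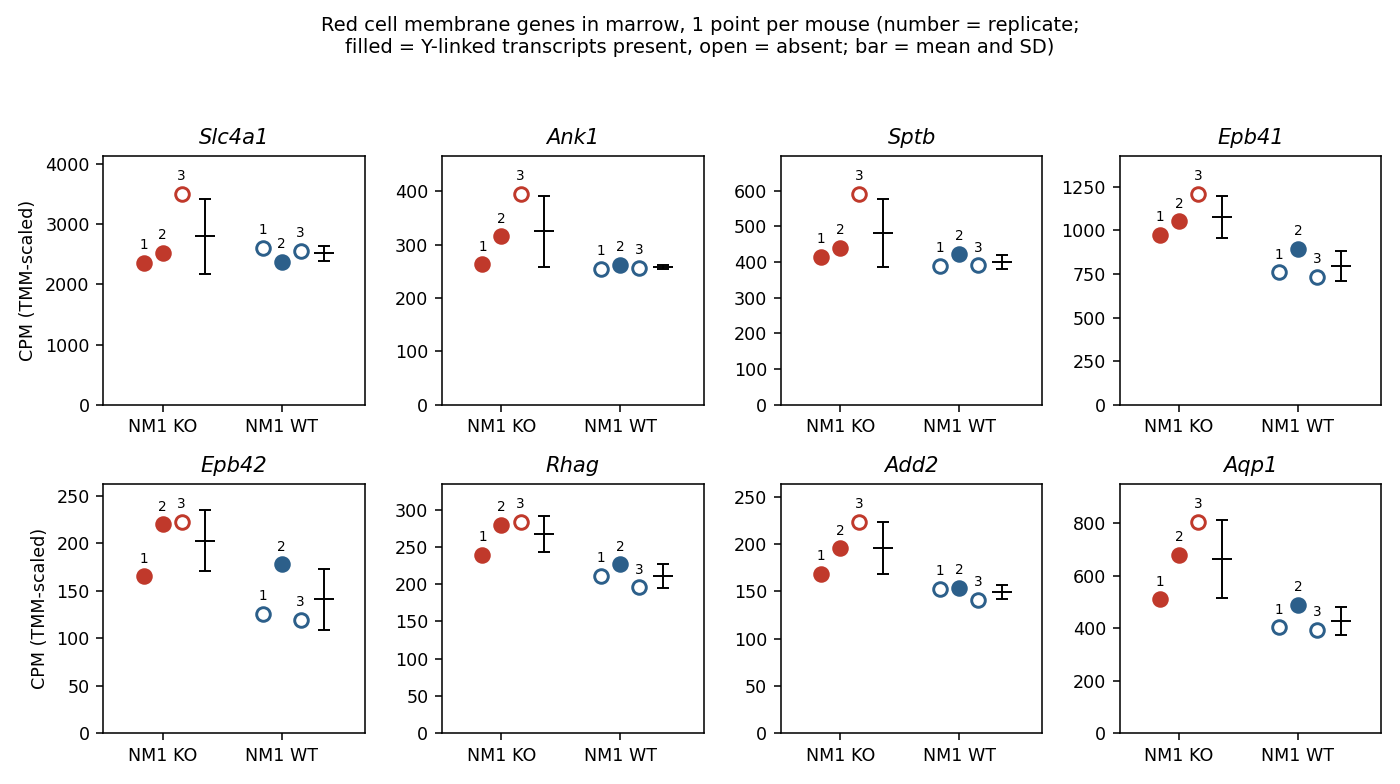
Level of each of the 8 genes in every mouse, in TMM-scaled CPM from 0, with NM1 KO left of NM1 WT. Numbers are replicates, filled points are libraries with Y-linked transcripts, open points are libraries without them, and the bar gives the mean and SD of 3 mice. NM1 KO 3 is the highest of the 6 libraries for all 8 genes, and NM1 KO 1 is the lowest of the NM1 KO libraries for all 8.

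Slc4a1 encodes band 3, the chloride and bicarbonate exchanger that anchors the skeleton to the bilayer, and it was the most abundant member. It lies on chromosome 11, 102348824 to 102366203 (GRCm38, minus strand), the chromosome that also carries Myo1c (75650504 to 75673910). Slc4a1 had 2353, 2521 and 3503 CPM in NM1 KO mice, against 2604, 2368 and 2558 CPM in NM1 WT mice. NM1 KO 3 was far above the other 5 libraries, while NM1 KO 1 was the lowest of all 6, so the genotypes overlapped. The log2 fold change was 0.15 (SE 0.16, 95% interval -0.19 to 0.50, adjusted p = 0.676, edgeR), the smallest of the 8. Without NM1 KO 3 it was -0.04.

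Ank1 encodes erythroid ankyrin, the adaptor between band 3 and beta spectrin (chromosome 8, 22974844 to 23150497, plus strand). It had 263, 316 and 396 CPM in NM1 KO mice, against 255, 262 and 256 CPM in NM1 WT mice. The NM1 WT mice were almost identical, the NM1 KO mice spread widely, and NM1 KO 1 exceeded the highest NM1 WT library only narrowly. The log2 fold change was 0.33 (SE 0.15, 95% interval 0.01 to 0.66, adjusted p = 0.287, edgeR), and without NM1 KO 3 it was 0.17. A short ankyrin made from the same gene is known in skeletal muscle. Summed over 20 muscle markers, the level was 173, 196 and 174 CPM in NM1 KO mice, against 71.1, 60.3 and 85.2 CPM in NM1 WT mice, and its part in the Ank1 values was not tested. An antisense gene, Gm15816, shares 862 exon bases with Ank1, but it held at most 30 counts in any library.

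Epb42 encodes protein 4.2, which binds the cytoplasmic end of band 3 and ankyrin (chromosome 2, 121017891 to 121037072, minus strand). It had 165, 220 and 222 CPM in NM1 KO mice, against 126, 178 and 120 CPM in NM1 WT mice. NM1 WT 2 lay above NM1 KO 1, so the groups overlapped, and the NM1 WT mice spread as widely as the NM1 KO mice. The log2 fold change of 0.52 (SE 0.17, 95% interval 0.14 to 0.90) had an adjusted p of 0.171 with edgeR. Without NM1 WT 2 it was 0.73 and passed (adjusted p = 0.0468, edgeR).

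Rhag encodes the Rh-associated glycoprotein, the partner without which the Rh antigens do not reach the surface (chromosome 17, 40811126 to 40840754, plus strand). It had 240, 280 and 283 CPM in NM1 KO mice, against 211, 227 and 196 CPM in NM1 WT mice. All NM1 KO values lay above all NM1 WT values, with the log2 fold change at 0.34 (SE 0.13, 95% interval 0.07 to 0.62, adjusted p = 0.201, edgeR). Rhag had the smallest SD of the 8 among the NM1 KO mice, at 268 ± 24.3 CPM against 211 ± 15.7 CPM in NM1 WT (SD, n = 3 each).

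Sptb encodes beta spectrin, the chain that carries the ankyrin and protein 4.1R binding sites (chromosome 12, 76580488 to 76710547, minus strand). It had 414, 440 and 592 CPM in NM1 KO mice, against 389, 423 and 390 CPM in NM1 WT mice. NM1 KO 3 stood above the rest and NM1 KO 1 lay below NM1 WT 2, so the groups overlapped. The log2 fold change was 0.26 (SE 0.15, 95% interval -0.06 to 0.59, adjusted p = 0.397, edgeR), and without NM1 KO 3 it was 0.09.

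Epb41 encodes protein 4.1R, which fastens spectrin to actin and to membrane proteins (chromosome 4, 131923413 to 132075321, minus strand). It had 973, 1052 and 1210 CPM in NM1 KO mice, against 759, 895 and 734 CPM in NM1 WT mice. The groups did not overlap, and NM1 WT 2 was the nearest NM1 WT library to the NM1 KO range. The log2 fold change was 0.44 (SE 0.14, 95% interval 0.14 to 0.74, adjusted p = 0.147 with edgeR and 0.0380 with DESeq2). Protein 4.1R is also made outside the red cell lineage, and counts per gene do not separate its isoforms.

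Add2 encodes beta adducin, which caps actin filaments and recruits spectrin to them (chromosome 6, 86028681 to 86124409, plus strand). It had 168, 196 and 223 CPM in NM1 KO mice, against 153, 154 and 141 CPM in NM1 WT mice. Again the groups did not overlap, and the log2 fold change was 0.39 (SE 0.13, 95% interval 0.10 to 0.68, adjusted p = 0.173, edgeR).

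Aqp1 encodes aquaporin 1, the water channel of the red cell and carrier of the Colton blood group in humans (chromosome 6, 55336432 to 55348555, plus strand). It had the largest difference among the members, with 509, 679 and 804 CPM in NM1 KO mice, against 403, 490 and 394 CPM in NM1 WT mice. The groups did not overlap, although NM1 KO 1 exceeded NM1 WT 2 only narrowly. The log2 fold change was 0.63 (SE 0.17, 95% interval 0.26 to 1.00, adjusted p = 0.107 with edgeR, 0.00917 with DESeq2). It passed in edgeR without NM1 KO 1 (0.79, adjusted p = 0.0481). Aqp1 is also made by endothelium. Of 20 endothelial markers 19 were positive on the log2 scale (median 0.83), and their summed level was 495, 677 and 443 CPM in NM1 KO mice, against 284, 263 and 377 CPM in NM1 WT mice. NM1 KO 2 was highest for these markers and NM1 KO 3 lowest of the NM1 KO mice, whereas Aqp1 was highest in NM1 KO 3. Vwf, a gene of this list, had 152, 246 and 142 CPM in NM1 KO mice, against 71.9, 79.7 and 85.6 CPM in NM1 WT mice. The part of endothelium in the Aqp1 values was not tested.

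**Figure D2:**
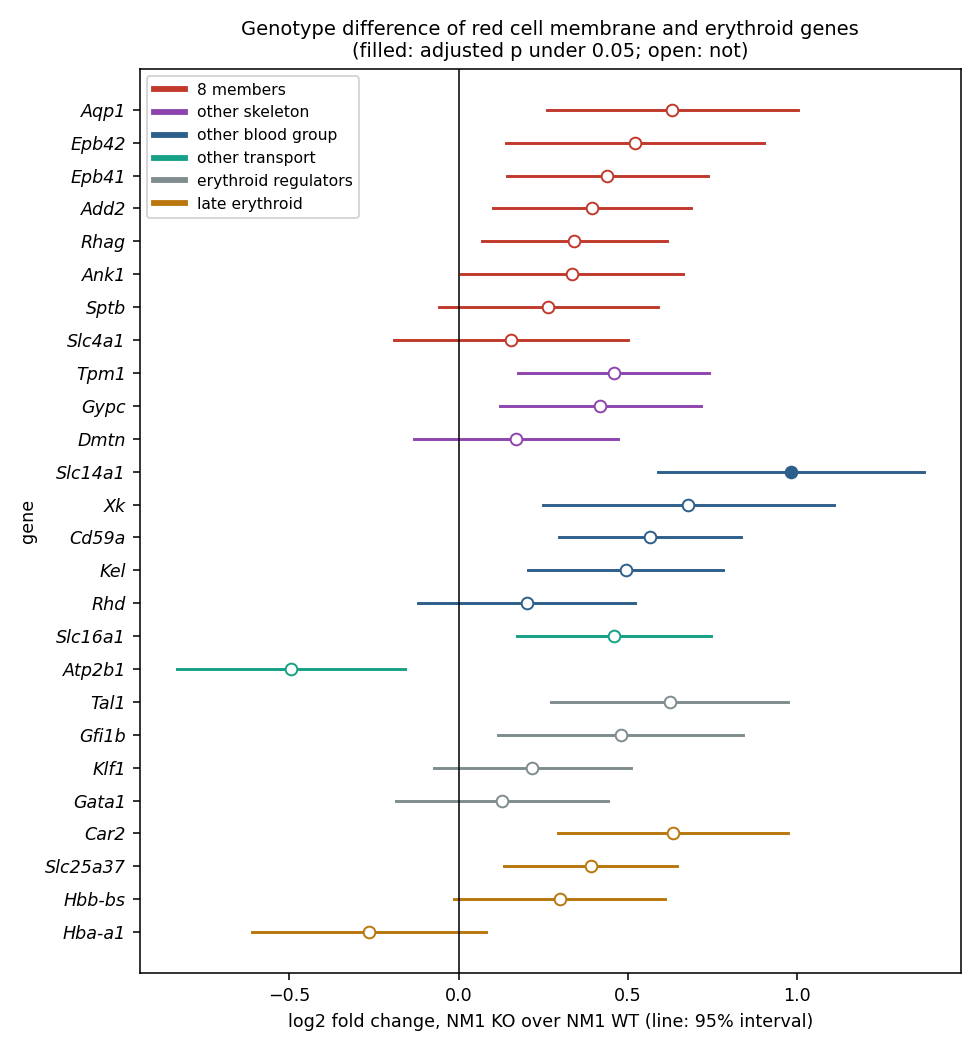
Log2 fold change of NM1 KO over NM1 WT (points) with its 95% interval (lines) from edgeR's fit, for the 8 members and for named genes of other red cell membrane and erythroid lists. Filled points passed an adjusted p of 0.05, and the urea transporter gene Slc14a1 is the only filled one among the genes drawn. The intervals of Slc4a1 and Sptb include 0.

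Because genes of different length collect different numbers of reads, levels of different genes were compared as CPM per kilobase of annotated exon. On that scale Slc4a1 had 571 ± 127 in NM1 KO and 513 ± 25.5 in NM1 WT (SD, n = 3 each), far above the rest. Aqp1 followed with 253 ± 56.3 in NM1 KO and 163 ± 20.2 in NM1 WT, and Rhag with 114 ± 10.4 in NM1 KO and 90.3 ± 6.70 in NM1 WT. Then came Epb41 (67.7 in NM1 KO, 49.9 in NM1 WT), Sptb (39.7 in NM1 KO, 33.0 in NM1 WT), Epb42 (37.4 in NM1 KO, 26.0 in NM1 WT), Ank1 (24.0 in NM1 KO, 19.1 in NM1 WT) and Add2 (19.3 in NM1 KO, 14.7 in NM1 WT), all in CPM per kilobase. The order of the means was the same in both genotypes. The ranges of Sptb and Epb42 over mice overlapped in both genotypes. Those of Ank1 and Add2 overlapped in NM1 KO mice but not in NM1 WT mice. Both genes of a pair were measured in the same mice, so overlap of ranges does not test their order. The exon length used is the union of all annotated transcripts, which lowers the value of genes with many isoforms such as Epb41 and Ank1.

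The 8 genes varied together from mouse to mouse. Over the 6 libraries Pearson correlations of log2 CPM between members had a median of 0.89 over 28 pairs, from 0.39 (Slc4a1 with Epb42) to 0.98 (Add2 with Aqp1). These points share libraries, depth and tissue, and the values are a description of 6 mice. Sptb and Ank1, spectrin and the ankyrin it binds, were each other's nearest member (0.96), and Slc4a1 was nearest to Sptb (0.87). Epb42 and Slc4a1, which bind one another in the membrane, were the least alike pair. On the CPM scale the SD was larger among NM1 KO mice for all 8 members, and this held for 44.9% of all tested genes. An SD of CPM can grow with the mean, and all 8 means were higher in NM1 KO. For Epb42 the SDs were nearly equal, at 32.15 CPM for the knockouts and 31.97 CPM for the wild types. Its ratio of highest to lowest mouse was larger in NM1 WT (1.49) than in NM1 KO (1.34), unlike the other members. NM1 KO 3 was the highest library for all 8, so these are not 8 separate observations of spread. As a ratio of SDs the difference in spread was widest for Ank1, with an SD of 66.6 CPM in NM1 KO mice, against 3.90 CPM in NM1 WT mice.

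Within the libraries that held Y-linked transcripts (2 NM1 KO, 1 NM1 WT), the log2 difference between genotypes was positive for all 8 members and ran from 0.01 for Sptb to 0.26 for Aqp1. Within the libraries without them (1 NM1 KO, 2 NM1 WT) it was again positive for all 8 and ran from 0.44 for Slc4a1 to 1.01 for Aqp1. The second set rests on NM1 KO 3, and neither set is large enough for a test. With a term for the Y-linked state in edgeR's fit, the median log2 fold change of the members was 0.41 and their smallest adjusted p 0.139.

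Upstream sequence was at hand for 6 of the 8 genes, in RefSeq windows of 250 bases before the transcript start (GRCm38.p6). Erythroid promoters are known to carry GATA words, read by the erythroid factor GATA1, and CACCC boxes, read by KLF1. The GATA words searched were AGATAA and AGATAG, and also TGATAA and TGATAG, on both strands, and 26.5% of 32851 mouse windows of that length held at least 1. The CACCC words were CCNCACCC and CCNCGCCC, on both strands, in 31.7% of windows, and the second also fits GC boxes of other factors. GATA words were found for 4 of the 6 genes and CACCC words for 4, and Epb41 entered with 3 windows. The form CCNCACCC was found for Aqp1 alone. All CACCC words of Add2, Epb41 and Sptb had the form CCNCGCCC, so the stretches below mark only that form. The windows with a GATA word are shown. Those of Aqp1 and Sptb held none, though both genes also varied with other members. The Aqp1 window ended at 55336298, ahead of the gene's annotated start at 55336432. A link between the words and the levels was not tested. Capitals mark the words found, and bases inside an annotated transcript of the gene are left off. The stretches are chr17:40810899-40811125 on the plus strand for Rhag, chr2:121037073-121037127 on the minus strand for Epb42, chr4:132075322-132075563 on the minus strand for Epb41, and chr6:86028431-86028680 on the plus strand for Add2, each 5′ to 3′.
Rhag: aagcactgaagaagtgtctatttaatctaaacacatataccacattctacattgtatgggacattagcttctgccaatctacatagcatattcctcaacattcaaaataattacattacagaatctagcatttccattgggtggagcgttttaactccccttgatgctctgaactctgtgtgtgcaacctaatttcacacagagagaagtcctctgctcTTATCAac
Epb42: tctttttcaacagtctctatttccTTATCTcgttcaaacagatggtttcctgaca
Epb41: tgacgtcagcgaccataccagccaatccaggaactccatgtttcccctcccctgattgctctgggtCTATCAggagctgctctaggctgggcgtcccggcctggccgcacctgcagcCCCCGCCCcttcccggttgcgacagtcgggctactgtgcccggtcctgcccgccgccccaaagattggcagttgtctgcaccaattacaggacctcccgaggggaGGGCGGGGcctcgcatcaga
Add2: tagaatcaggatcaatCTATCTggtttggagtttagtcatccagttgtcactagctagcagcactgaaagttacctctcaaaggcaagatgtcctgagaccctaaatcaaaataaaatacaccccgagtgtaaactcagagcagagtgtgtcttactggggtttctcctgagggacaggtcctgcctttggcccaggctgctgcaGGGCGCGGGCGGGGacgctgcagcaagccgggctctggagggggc
In Rhag the word TTATCA starts 31 bases before the RefSeq start, and in Epb42 the word TTATCT starts 226 bases before it. Only 55 of the 250 bases of Epb42 lie outside an annotated transcript. Its word is thus nearer to the first annotated transcript base than to the RefSeq start. In Epb41 the word CTATCA lies ahead of both CACCC words, and in Add2 the word CTATCT lies far upstream of the CACCC words, which overlap each other. A match is a run of letters in this window and shows no binding.

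Other genes of the red cell membrane were read from 3 further lists. Of 44 genes matched, 43 were tested, of which 1 rose and 0 fell in edgeR's quasi-likelihood test, against 0.591% of all genes higher and 0.186% lower. Their median log2 fold change was 0.26, and 31 of 43 were positive, against 50.2% of all genes. At an unadjusted p under 0.05, 18 were higher and 2 lower, against 16.8% of all genes in either direction and 8.44% higher.

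The gene that rose was Slc14a1, the urea transporter that carries the Kidd blood group in humans. It had 119, 197 and 140 CPM in NM1 KO mice, against 67.3, 80.6 and 83.4 CPM in NM1 WT mice, and its log2 fold change was 0.98 (SE 0.18, adjusted p = 0.0356, edgeR). NM1 KO 2 was its highest library, unlike the 8 members, which were all highest in NM1 KO 3. The call was lost without NM1 KO 2 (0.75, adjusted p = 0.0907), NM1 WT 1 (0.89, adjusted p = 0.186) or NM1 WT 3 (1.03, adjusted p = 0.0787), with limma-voom (0.95, adjusted p = 0.0621) and with a term for the Y-linked state (0.93, adjusted p = 0.0574). Over all 19 alternatives the log2 fold change stayed between 0.75 and 1.13.

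In the blood group list, 18 of 21 tested genes were positive, against 50.2% of all genes, with a median log2 fold change of 0.40. NM1 KO values lay wholly above NM1 WT for 11 and wholly below for 0, against 10.8% and 9.75% of all genes. Cd59a, an inhibitor of the complement attack complex, had 72.9, 73.9 and 74.0 CPM in NM1 KO mice, against 51.3, 45.0 and 53.0 CPM in NM1 WT mice (log2 fold change 0.57, adjusted p = 0.0565, edgeR). Kel, the Kell antigen protease, had 242, 301 and 301 CPM in NM1 KO mice, against 217, 191 and 192 CPM in NM1 WT mice (0.49, adjusted p = 0.107). Kell is held in the membrane by the XK protein, whose gene Xk had 29.7 ± 7.15 CPM in NM1 KO mice, against 18.6 ± 1.49 CPM in NM1 WT mice (0.68, adjusted p = 0.127). Rhd, the Rh antigen carrier that Rhag supports, had a smaller difference, with 410, 472 and 596 CPM in NM1 KO mice, against 445, 413 and 429 CPM in NM1 WT mice (0.20, adjusted p = 0.533). Here and below, values in parentheses are log2 fold changes and adjusted p from edgeR, and ± gives the SD over 3 mice.

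In the skeleton list 0 of 10 genes passed in edgeR's test, and the median log2 fold change was 0.22. At an unadjusted p under 0.05, 3 were higher in NM1 KO and 1 lower, against 16.8% of all genes in either direction. Gypc, glycophorin C, the membrane partner of protein 4.1R, had 231 ± 32.5 CPM in NM1 KO mice, against 173 ± 11.5 CPM in NM1 WT mice (0.42, adjusted p = 0.160), and Tpm1, a tropomyosin that lies along actin, 179 ± 21.2 CPM in NM1 KO mice, against 130 ± 7.48 CPM in NM1 WT mice (0.46, adjusted p = 0.119). Dmtn, dematin, which bundles actin, had 331, 295 and 407 CPM in NM1 KO mice, against 318, 300.2 and 300.8 CPM in NM1 WT mice (0.17, adjusted p = 0.581). Tpm3 and Actb, which most cells use, had negative values of -0.28 (adjusted p = 0.292) and -0.21 (adjusted p = 0.483) and were picked after their values were seen.

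Among 12 transporters, channels and pumps 0 passed in edgeR's test, and the median log2 fold change was 0.06. At an unadjusted p under 0.05, 3 were higher in NM1 KO and 1 lower, against 16.8% of all genes in either direction. Slc16a1, a lactate carrier, had 306 ± 35.7 CPM in NM1 KO mice, against 223 ± 17.0 CPM in NM1 WT mice (log2 fold change 0.46, adjusted p = 0.123), while Atp2b1, a plasma membrane calcium pump, had 125 ± 9.86 CPM in NM1 KO mice, against 177 ± 34.6 CPM in NM1 WT mice (-0.50, adjusted p = 0.147). The paralogs that do similar jobs in other cells stood near the middle of all genes. Of 14 tested, 0 passed and 3 had an unadjusted p under 0.05, 1 higher and 2 lower in NM1 KO, with a median of 0.02. Sptan1 and Sptbn1, the spectrin chains of other cells, stood at -0.20 (SE 0.12) and 0.07 (SE 0.11) on the log2 scale, against 0.26 for Sptb, and were picked after their values were seen. Epb41l4a and Ank2, the paralogs of smallest p, had means under 5 CPM in both genotypes (log2 fold changes -2.04 and -1.40, adjusted p = 0.184 and 0.206).

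**Figure D3:**
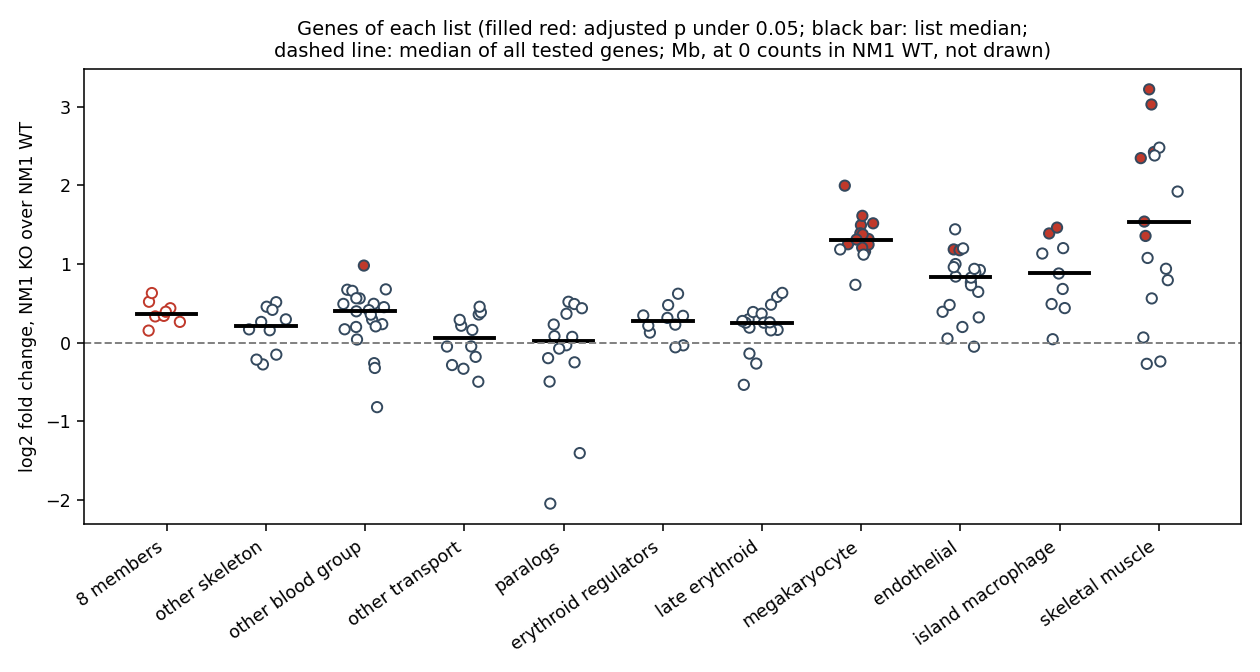
Log2 fold change of NM1 KO over NM1 WT for the tested genes of each list, 1 point per gene, filled red where adjusted p was under 0.05 in edgeR's test, with a black bar at the list median. Mb, at 0 counts in NM1 WT, is not drawn. The 8 members lie between 0.15 and 0.63, below the medians of the megakaryocyte (1.31), endothelial (0.83), macrophage (0.88) and muscle (1.54) lists.

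Erythroid genes outside the membrane were read from a pair of lists. Of 10 erythroid regulators and early genes 0 passed in edgeR's test, and the median log2 fold change was 0.27. At an unadjusted p under 0.05, 5 were higher in NM1 KO and 0 lower, against 16.8% of all genes in either direction and 8.44% higher. Tal1, a master regulator of blood development, had 232 ± 30.1 CPM in NM1 KO mice, against 151 ± 29.9 CPM in NM1 WT mice (0.62, adjusted p = 0.0977), and Gfi1b, an erythroid and megakaryocytic repressor, 72.5 ± 12.7 CPM in NM1 KO mice, against 52.1 ± 8.40 CPM in NM1 WT mice (0.48, adjusted p = 0.180). Gata1 and Klf1, whose words were searched above, stood at 0.13 (SE 0.14, adjusted p = 0.706) and 0.22 (SE 0.13, adjusted p = 0.447) on the log2 scale. Of 16 late erythroid genes 0 passed, and 6 had an unadjusted p under 0.05, all 6 higher in NM1 KO. In that list 13 were positive, and the median was 0.26, in a range from -0.54 to 0.63. Car2, carbonic anhydrase 2, had 2724 ± 441 CPM in NM1 KO mice, against 1756 ± 248 CPM in NM1 WT mice (0.63, adjusted p = 0.0867), and Slc25a37, the mitochondrial iron importer mitoferrin 1, 1805 ± 42.0 CPM in NM1 KO mice, against 1377 ± 53.8 CPM in NM1 WT mice (0.39, adjusted p = 0.136). The beta-globin genes had positive log2 fold changes, 0.30 for Hbb-bs (adjusted p = 0.321) and 0.19 for Hbb-bt (adjusted p = 0.534), and the alpha-globin genes negative ones, -0.26 for Hba-a1 (adjusted p = 0.432) and -0.54 for Hba-a2 (adjusted p = 0.337). Hba-a2 had 9352 ± 2082 CPM in NM1 KO mice, against 13550 ± 5196 CPM in NM1 WT mice. The 2 alpha-globin genes are nearly identical, so how reads were split between them is uncertain.

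The members were also set against the mean log2 CPM of those 16 late genes in the same library. That mean was 10.41, 10.48 and 10.56 in NM1 KO mice, against 10.29, 10.25 and 10.28 in NM1 WT mice. It was higher in NM1 KO by 0.21 on the log2 scale, and highest in NM1 KO 3, as were the 8 members. Relative to it, Slc4a1 differed by -0.08 between NM1 KO and NM1 WT, Sptb by 0.04, Ank1 by 0.10, Rhag by 0.13, Add2 by 0.17, Epb41 by 0.22, Epb42 by 0.32 and Aqp1 by 0.40. On this relative scale the genotypes overlapped for all 8 genes. Because the same mean was taken from every member, each difference fell by the same 0.21, whatever the member. The mean includes the alpha-globin genes, whose reads may be split wrongly. The values are a description and were not tested.

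The libraries differed in other cell types too, and in another order. Of 15 megakaryocyte markers 12 rose in edgeR's test, and 2 of 9 markers of erythroblastic island macrophages rose. In the same test 2 of 20 endothelial markers and 7 of 17 tested muscle markers rose, against 0.591% of all genes. With limma-voom the megakaryocyte, macrophage, endothelial and muscle counts were 5, 0, 1 and 2, among 37 genes called of 15069 tested. With a term for the Y-linked state they were 5, 1, 2 and 5, among 60 of 15069. The summed megakaryocyte level was 2753, 4881 and 2306 CPM in NM1 KO mice, against 1078, 1284 and 1468 CPM in NM1 WT mice. The summed macrophage level was 1141, 1846 and 849 CPM in NM1 KO mice, against 509, 696 and 659 CPM in NM1 WT mice. NM1 KO 2 was highest for these lists and NM1 KO 3 the lowest of the NM1 KO mice in the megakaryocyte, macrophage and endothelial lists, unlike the 8 members, which were highest in NM1 KO 3. Without NM1 WT 1 the megakaryocyte, macrophage, endothelial and muscle counts were 2, 0, 0 and 0, among 26 genes called of 15564 tested. Without NM1 WT 3 they were 3, 0, 0 and 4, among 30 of 15538. Without NM1 KO 2 they were 6, 0, 1 and 4, among 40 of 15273. Without NM1 KO 1 the muscle count was 4 and the macrophage count 1, among 121 of 15225. Without NM1 KO 3 they were 3 and 4, among 177 of 15279. Named genes were Mpig6b (log2 fold change 1.31) and Clec1b (1.52), receptors of megakaryocytes, and Vwf (1.19) and Esam (1.17) of the endothelial list. Others were Mrc1 (1.46) and Vcam1 (1.39) of the macrophage list, and the troponin genes Tnnt3 (2.35) and Tnni2 (1.54) of the muscle list. Vwf and Esam, the 2 endothelial markers that rose, were highest in NM1 KO 2, as was the summed megakaryocyte level. The part of megakaryocytes in their values was not tested. Myoglobin, Mb, had 0 counts in every NM1 WT library and was at least 15.7-fold higher in NM1 KO, against a floor of 6 counts over the group. The part of these cells in the values of the 8 members was not tested.

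**Figure D4:**
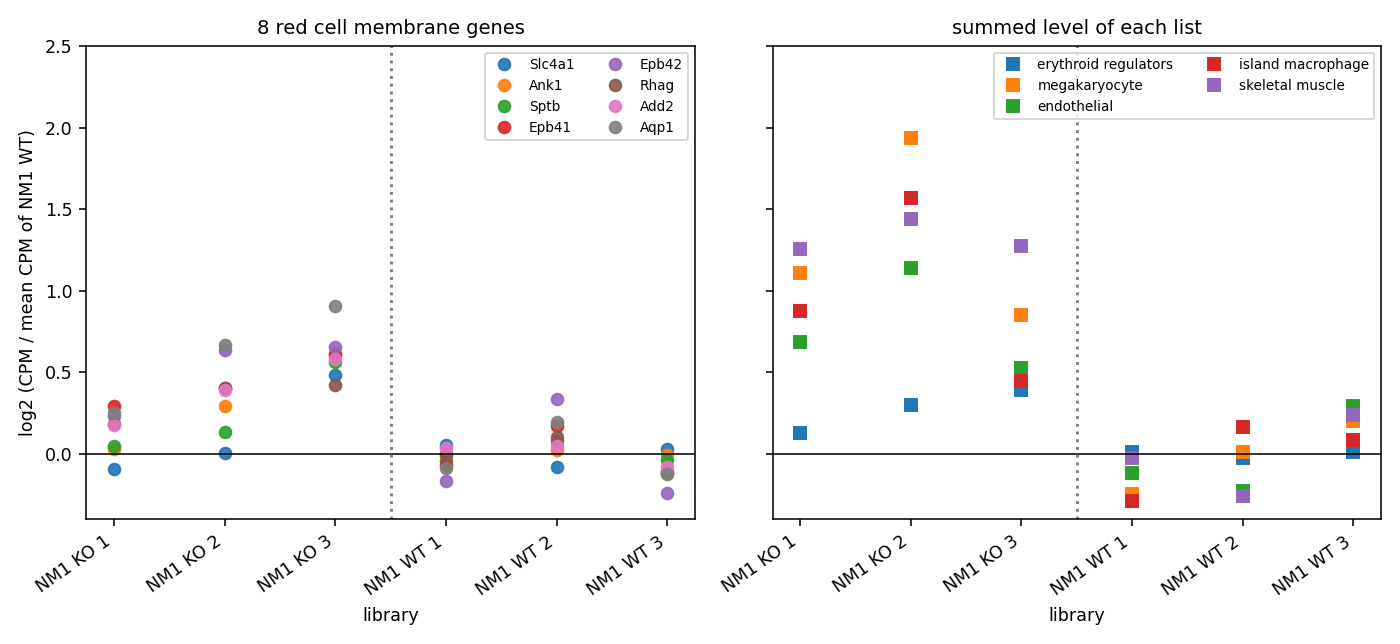
Log2 ratio of each library to the NM1 WT mean, with the NM1 KO libraries left of the dotted line. Shown are TMM-scaled CPM of the 8 members (left) and the summed CPM of 5 lists, scaled to library totals alone (right). The members peak in NM1 KO 3, as do the erythroid regulators, and the megakaryocyte, endothelial, macrophage and muscle lists peak in NM1 KO 2. Not drawn is the summed late erythroid list, at 0.09 in NM1 KO 3 and highest in NM1 WT 3 (0.21). Globin genes weigh most in that sum. As the mean log2 CPM of its 16 genes, the late list was highest in NM1 KO 3 (10.56, against 10.25 to 10.29 in NM1 WT). Also not drawn are the other skeleton genes, whose sum was highest in NM1 KO 1 (0.06, against -0.20 in NM1 KO 3).

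Genes outside all lists were searched for the pattern of the members, taken as the mean of their z-scored log2 CPM over the 6 libraries. Among 8709 protein-coding genes with a mean of at least 10 CPM, the closest by Pearson r were Zw10 (0.995), Fn3krp (0.995), E2f4 (0.995), Cdc6 (0.994), Uhrf1 (0.992), Fbxo9 (0.991), Ranbp10 (0.988) and Fam204a (0.987). In all, 245 genes had r over 0.9, so many genes share this order of 6 mice. Zw10 serves the kinetochore, Cdc6 licenses replication origins, Uhrf1 maintains DNA methylation and E2f4 is a cell cycle transcription factor. The other genes named are not described here, and a shared function was not tested. Cdc6 had 82.8, 103 and 120 CPM in NM1 KO mice, against 74.3, 81.0 and 73.8 CPM in NM1 WT mice. Ranbp10 had 257, 282 and 352 CPM in NM1 KO mice, against 215, 232 and 201 CPM in NM1 WT mice. Both were highest in NM1 KO 3 and neither passed the threshold (adjusted p = 0.186 and 0.142, edgeR).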

How the data were processed

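Marrow RNA was sequenced from 3 mice without nuclear myosin 1 and 3 wild-type mice, with 1 NEBNext Ultra II library per mouse read on a NextSeq, per the labels' protocols. Each deposited file gives, for 1 mouse, unnormalised whole-number counts by Ensembl identifier, as the authors made them. The submitters' processing notes name HISAT2 2.0.4 and HTSeq, next to Trimmomatic 0.36, SAMtools 0.1.19 and FastQC, with the builds GRCm38 and mm10. How strand was treated and which annotation release served are not stated in the sources at hand, so reads of antisense genes cannot be told apart. Of counts between 1 and 20, at least 98.7% were even in each library, so both mates of a pair appear to have been counted, and halved counts were tried.

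Symbols, positions and exon lengths came from GENCODE M21 (GRCm38), which matched 46091 of 46603 identifiers. Ahsp found no match. Genes were filtered with filterByExpr (15069 genes), scaled with TMM and tested with edgeR 4.0.16 (R 4.3.3), quasi-likelihood, genotype as the only term, Benjamini-Hochberg adjusted over all genes. The 95% intervals use the moderated degrees of freedom. DESeq2 1.42.0, limma-voom (limma 3.58.1) and other settings are alternatives. The steps were tested on simulated counts. The members, lists and the rule for named genes were chosen with earlier results of these data known. That rule takes the 8 members and Myo1c, up to 4 genes of smallest p per list or the 2 of smallest p where fewer than 2 passed, 11 genes for their role, and the 8 genes most alike in pattern, though 2 genes it names are not reported here. Other genes named were chosen after their values were seen.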

Additional observations from a re-analysis of the deposited data

How the results depend on the processing

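Over 19 alternatives the sign of every member but Slc4a1 was kept, and when each library was left out Slc4a1 ran from -0.0437 (without NM1 KO replicate 3) to 0.260 (without NM1 KO replicate 1). Members past the threshold numbered 0 with edgeR's quasi-likelihood test. Their count was 3 with no low-count filter (Epb41, Epb42 and Aqp1), 1 with the likelihood ratio test, 2 with DESeq2, 0 with limma-voom and 0 to 1 when each library was left out. The count of all genes, 117, was 1138 with no filter, 541 with the likelihood ratio test, 37 with limma-voom, 794 with DESeq2, 207 without haemoglobin, immunoglobulin and mitochondrial genes, 60 with the Y-linked state as a term, and 26 to 344 when each library was left out. For the other red cell membrane genes, 1 in the first fit, it was 13 with no filter, 3 with the likelihood ratio test, 0 with limma-voom, 11 with DESeq2, 2 with library totals alone, 2 without haemoglobin, immunoglobulin and mitochondrial genes, 0 with the Y-linked state, and 0 to 2 when each library was left out. The cause of these shifts was not tested. RLE and upper-quartile factors, a mean of at least 1 CPM, and halved or thinned counts kept the 0 members.

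The replicate numbers are shared by the genotypes but are not said to pair mice. Deviations from the group means correlated by 0.064, 0.115 and 0.061 between libraries of the same number, each higher than with any other number. With a replicate block 421 genes, 0 members and 3 other red cell membrane genes passed.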
